A study of Mus musculus with 4 samples.

Results

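*Rhox5*, *Rhox2d*, *Rhox2g*, *Rhox2h* and *Plac1* are X-linked genes of the germline and the placenta, and all 5 were counted in RNA labelled as CD4+ T cells from mouse lung tumors. They were taken from the 25239 gene symbols of the count files because their counts in libraries with the CD4/ALK4-KO label were much below those in libraries with the WT label, so that difference is described below without a test. They stand here as candidate carcinoma-cell RNA, that is, as transcripts that the injected tumor cells may have brought into the preparations. No library of the carcinoma cells alone was analysed here, so the cell of origin of these reads was not tested.

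The *Rhox* genes (reproductive homeobox on the X chromosome) encode transcription factors that are normally read out in testis, ovary, placenta and the early embryo. *Rhox5*, first known as *Pem*, is the founding member, is expressed in Sertoli cells of the testis and in the placenta, and is kept silent by DNA methylation in most somatic tissues. *Plac1* (placenta specific 1) encodes a cell-surface and secreted protein of the trophoblast, and both *Rhox5* and *Plac1* are known to be switched on in tumor cell lines of different origins.

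The 4 libraries came from C57BL/6 mice that received 500000 LLC-OVA cells, an ovalbumin-expressing Lewis lung carcinoma line, by the intravenous route. CD4/ALK4-KO stands for CD4CreERT2+/-/Acvr1bfl/fl mice, in which tamoxifen activates a Cre recombinase under the *Cd4* promoter and so deletes the activin receptor gene *Acvr1b* (ALK4) in cells that use that promoter. The study's methods give 5 daily tamoxifen doses of 75 mg/kg for the CD4/ALK4-KO mice, and whether the WT mice received tamoxifen was not stated. Lungs were taken after 18 to 22 days by the labels (16 to 20 days by the methods), the mice were 8 to 10 weeks old males, leukocytes were collected at a Percoll interface, and CD4+ T cells were isolated with a kit. Each genotype had 2 libraries, and no source says whether they came from separate animals, so the spread between them may be technical.

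Total counts ran from 11823908 to 13943237 per library. T cell genes were low beside myeloid and fibroblast genes, chiefly in WT. The summed level of 16 T cell identity genes was 689 and 663 CPM (counts scaled to library size) in the WT libraries. It was 3515 and 3112 CPM in the CD4/ALK4-KO libraries. All 16 genes rose (adjusted p under 0.05, median log2 fold change 2.47), against 17.4% of the 13919 genes tested. *Cd4* itself had 759 and 649 counts in WT and 3654 and 4033 in CD4/ALK4-KO. Myeloid genes summed to between 7715 and 9211 CPM and fibroblast genes to between 5346 and 8642 CPM, above the T cell genes in every library. Keratin, endothelial and B cell genes summed to less than the T cell genes in every library. Alveolar and airway genes summed to 750 and 752 CPM in WT, above the T cell genes. In CD4/ALK4-KO they summed to 656 and 504 CPM, below the T cell genes. Sums over unlike lists do not give shares of cells. *Acvr1b*, the gene deleted by design, did not separate the labels, with 426 and 342 counts in WT and 322 and 445 in CD4/ALK4-KO (log2 fold change 0.16, SE 0.24, adjusted p = 0.66). The groups below are therefore the libraries as labelled. In bulk RNA, fewer cells of one type and less RNA per cell cannot be told apart.

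*Rhox2d*, *Rhox2g* and *Rhox2h* belong to a family of near-identical copies, and their sequences show how a read can or cannot be given to 1 copy. The *Rhox2* copies have coding sequences of 573 bases each in GENCODE M21. *Rhox2d* and *Rhox2g* were 97.0% identical with 17 differing bases, *Rhox2d* and *Rhox2h* 95.1% with 28, and *Rhox2g* and *Rhox2h* 94.8% with 30. The stretch of 120 coding bases with the most variable positions (18), from base 376 to base 495 of the coding sequence, is given for the 3 copies with counts and for *Rhox2a*, a copy at 0 in every library. Capitals mark bases that differ from *Rhox2d*.
Rhox2d: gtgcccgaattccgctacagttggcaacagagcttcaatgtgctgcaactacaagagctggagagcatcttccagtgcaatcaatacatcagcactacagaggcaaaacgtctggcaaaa
Rhox2g: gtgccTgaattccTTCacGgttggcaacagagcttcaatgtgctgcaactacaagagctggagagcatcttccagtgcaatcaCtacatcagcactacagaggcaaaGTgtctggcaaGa
Rhox2h: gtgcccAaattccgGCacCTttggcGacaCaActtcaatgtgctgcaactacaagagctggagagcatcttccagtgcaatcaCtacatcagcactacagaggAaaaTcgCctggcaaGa
Rhox2a: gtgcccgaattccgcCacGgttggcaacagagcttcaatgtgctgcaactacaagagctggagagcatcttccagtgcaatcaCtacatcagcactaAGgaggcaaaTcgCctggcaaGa
*Rhox2g* differed from *Rhox2d* at 9 bases of this stretch, *Rhox2h* at 13 and *Rhox2a* at 8, and the capitals cluster at its ends. Within it, of the 4 copies only *Rhox2g* and *Rhox2a* share a run as long as a read of 75 bases.

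The share of a transcript that is its own was measured as the share of 75-base windows, the length of the reads, found in no other gene's transcripts. It was 100% for *Rhox5* and *Plac1*, 74.5% for *Rhox2d*, 68.0% for *Rhox2g* and 71.5% for *Rhox2h*. Counts of *Rhox5* and *Plac1* can thus be read as those of single genes. The split among the *Rhox2* copies is less certain, because the sources used here do not say how reads that fit several places were counted.

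The promoters of these genes are shown because methylation of CpG dinucleotides is the known silencer of *Rhox5*. They run from 250 bases before to 50 after the start of transcription in RefSeq (GRCm38.p6), in the direction of the gene, with each CpG in capitals. For *Rhox5* that start lies 50234 bp upstream of the GENCODE M21 start, which gave the lengths and windows. The sequence at the GENCODE start of *Rhox5* is not shown. The *Rhox5* sequence lies at chrX:37754358-37754657 on the plus strand, that of *Rhox2d* at chrX:37493160-37493459 on the plus strand, and the 2 starts of *Plac1* at chrX:53240061-53240360 and chrX:53114356-53114655 on the minus strand.
Rhox5: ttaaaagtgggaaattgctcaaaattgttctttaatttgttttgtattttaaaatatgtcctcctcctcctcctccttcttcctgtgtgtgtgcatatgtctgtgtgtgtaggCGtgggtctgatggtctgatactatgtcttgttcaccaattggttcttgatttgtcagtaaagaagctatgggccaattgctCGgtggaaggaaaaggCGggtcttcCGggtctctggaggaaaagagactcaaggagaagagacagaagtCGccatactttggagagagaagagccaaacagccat
Rhox2d: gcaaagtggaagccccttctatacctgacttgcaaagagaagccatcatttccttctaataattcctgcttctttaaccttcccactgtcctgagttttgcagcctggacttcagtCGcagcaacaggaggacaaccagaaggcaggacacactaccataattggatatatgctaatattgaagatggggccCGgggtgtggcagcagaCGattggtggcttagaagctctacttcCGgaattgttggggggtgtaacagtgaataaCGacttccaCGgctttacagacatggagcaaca
Plac1 upstream start: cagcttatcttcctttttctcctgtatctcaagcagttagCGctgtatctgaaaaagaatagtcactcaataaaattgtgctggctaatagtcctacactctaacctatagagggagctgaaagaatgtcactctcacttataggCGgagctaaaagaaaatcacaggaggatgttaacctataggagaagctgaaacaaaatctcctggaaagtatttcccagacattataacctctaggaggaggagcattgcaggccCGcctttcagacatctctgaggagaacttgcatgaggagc
Plac1 downstream start: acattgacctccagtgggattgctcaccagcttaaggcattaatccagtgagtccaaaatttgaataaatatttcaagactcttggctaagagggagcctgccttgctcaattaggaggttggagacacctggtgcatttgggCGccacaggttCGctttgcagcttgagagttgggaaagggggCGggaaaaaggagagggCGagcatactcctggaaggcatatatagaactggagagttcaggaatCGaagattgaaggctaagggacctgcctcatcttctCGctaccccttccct
The *Rhox5* promoter holds 5 CpGs and those of *Plac1* 3 and 6, against a median of 7 over 32851 promoters of the same length.

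Among the *Rhox2* copies, the promoters of those with counts hold 6 (*Rhox2d*), 5 (*Rhox2g*) and 7 (*Rhox2h*) CpGs. Those of *Rhox2a*, *Rhox2b* and *Rhox2e*, all at 0 in every library, hold 8 each and that of *Rhox2c*, also at 0, holds 9. The copies at 0 have few 75-base windows of their own, from 2.1% (*Rhox2e*) to 36.9% (*Rhox2c*). Their 0 can therefore also cover reads given to another copy or left out. The promoters of *Rhox2a*, *Rhox2c* and *Rhox2e* are 99.3% to 99.7% identical and so are not separate cases. The CpG numbers are a description of sequence, since methylation was not measured. The letters CCGGAA, a core bound by ETS factors, were found on either strand in the promoters of *Rhox5* and of all 7 *Rhox2* copies with an entry, in neither promoter of *Plac1*, and in 14.9% of all promoters. GGGCGG, the GC box of Sp1 (35.7% of all promoters), was found only at the downstream start of *Plac1* among these, and TATAAA (13.6% of all promoters) in none of them. None of these promoters held more than 1 of the 3 motifs. In each of the 7 *Rhox2* promoters the matches on both strands overlap, sharing the bases CCGG, whereas *Rhox5* has the letters on the minus strand alone. A match of letters is not a binding site.

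**Figure D1:**
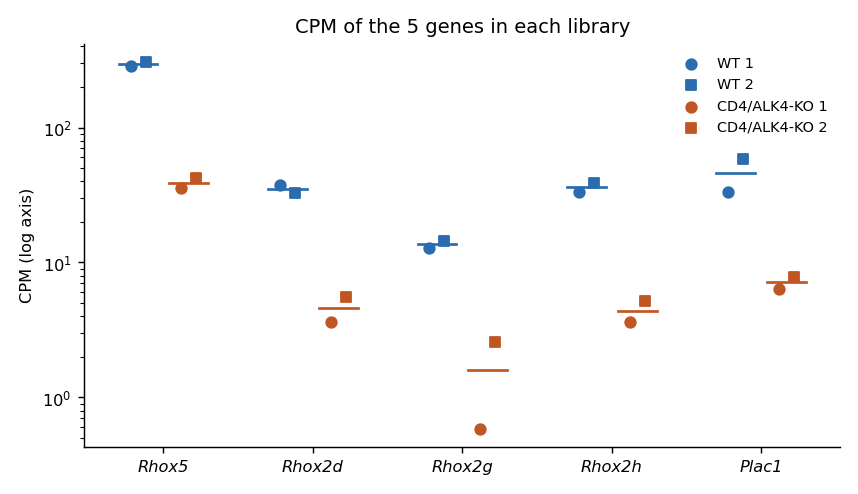
CPM of each of the 5 genes (log axis) in the 2 WT (blue) and 2 CD4/ALK4-KO libraries (orange), with circles for replicate 1, squares for replicate 2 and bars at the mean of 2. Every blue point lies above every orange point of the same gene, and the wider gaps within a genotype are those of Plac1 in WT and Rhox2g in CD4/ALK4-KO.

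*Rhox5* had 3907 and 4114 counts in the WT libraries and 425 and 524 in the CD4/ALK4-KO libraries. Both WT libraries were high and close to each other, and the lower of them was 6.72 times the higher CD4/ALK4-KO library in CPM. The means were 295 ± 13.5 CPM in WT and 39.1 ± 4.76 CPM in CD4/ALK4-KO (SD, n = 2 each), a log2 fold change of -2.91 (SE 0.23).

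Per length of transcript, *Rhox5* reached 391 ± 17.8 CPM per kb in WT and 51.8 ± 6.32 in CD4/ALK4-KO (SD, n = 2 each). In the WT libraries, 99.0% and 99.1% of 13719 genes with a length were below it, and in the CD4/ALK4-KO libraries 91.9% and 94.0%. On this scale its WT level was above that of the keratin gene *Krt18* (116 CPM per kb) and of *Cd4* (12.8 CPM per kb). In CD4/ALK4-KO it was close to *Krt18* (53.5 CPM per kb) and below *Cd4* (78.6 CPM per kb). *Rhox5* lies at chrX:37804842-37808876 on the plus strand in GENCODE M21 (GRCm38). The RefSeq gene starts 50234 bp further upstream, and counts per gene hold no position along the gene, so which start was used cannot be read from them.

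*Rhox2d*, a homeobox gene of the placenta and gonads like its copies, had 515 and 444 counts in WT and 43 and 69 in CD4/ALK4-KO. The groups did not overlap, and the WT order was opposite to that of *Rhox5*. Its means were 35.2 ± 3.36 and 4.60 ± 1.40 CPM (SD, n = 2 each; log2 fold change -2.93, SE 0.30).

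*Rhox2h* had 458 and 528 counts in WT and 43 and 64 in CD4/ALK4-KO. It was close to *Rhox2d* in all 4 libraries. Its means were 36.2 ± 3.97 and 4.40 ± 1.11 CPM (SD, n = 2 each; log2 fold change -3.04, SE 0.30).

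*Rhox2g* had 175 and 195 counts in WT and 7 and 32 in CD4/ALK4-KO. It was the lowest of the 5 genes in every library, and the CD4/ALK4-KO libraries were far apart. Its means were 13.6 ± 1.16 and 1.59 ± 1.42 CPM (SD, n = 2 each; log2 fold change -3.08, SE 0.45). Without CD4/ALK4-KO replicate 2 the log2 fold change was -4.51, and without replicate 1 it was -2.36, so the size of this difference rests on few counts.

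*Plac1* had 456 and 785 counts in WT and 76 and 97 in CD4/ALK4-KO. Both WT libraries were above both CD4/ALK4-KO libraries, but WT replicate 2 stood well above WT replicate 1. Its means were 45.7 ± 17.5 and 7.12 ± 1.04 CPM (SD, n = 2 each; log2 fold change -2.68, SE 0.30), and leaving out single libraries moved the log2 fold change between -3.03 and -2.23. Per kb of transcript the WT mean of *Plac1* was 32.7 ± 12.5 CPM, between *Rhox2h* (46.0 ± 5.04) and *Rhox2g* (17.1 ± 1.46), and *Rhox2d* stood at 51.4 ± 4.91 (SD, n = 2 each). *Plac1* was below *Rhox2d* and *Rhox2h* in each WT library (23.9 against 54.9 and 42.5 CPM per kb in replicate 1, 41.6 against 47.9 and 49.6 in replicate 2). *Rhox2d* and *Rhox2h* overlapped in WT, *Rhox5* stood above the other 4 genes in both libraries, and *Rhox2g* stood below them.

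The log2 fold changes of the 5 genes spanned a narrow range, from -3.08 to -2.68, a range that their choice as large falls helps to set. Of 13919 genes tested, 15.4% were called lower (adjusted p under 0.05), and 34% had both CD4/ALK4-KO values below both WT values, as all 5 of these genes did. Nothing is read from that count, since the genes were picked on this contrast. Of the 52 genes with a log2 fold change at or below that of *Plac1*, 8 lie on the X chromosome, and 5 of these 8 are the genes described here. The summed counts of the 5 genes came to 397 and 435 CPM of total counts in WT and 49.7 and 66.5 in CD4/ALK4-KO.

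Within a genotype the libraries were not used to pick the genes, and there the 5 did not move as one. Between the WT libraries, replicate 2 over replicate 1 was 1.07 for *Rhox5* (95% interval 1.02 to 1.11), 0.873 for *Rhox2d* (0.768 to 0.994), 1.13 for *Rhox2g* (0.916 to 1.39) and 1.17 for *Rhox2h* (1.03 to 1.33). For *Plac1* it was 1.74 (1.55 to 1.96). These are exact binomial intervals and cover counting error only. Of 10460 genes that averaged 100 counts or more, 1.7% had WT libraries at least as far apart as *Plac1*, against 73% for *Rhox5*. The shares were 48.2% for *Rhox2d*, 52.5% for *Rhox2g* and 42.2% for *Rhox2h*. *Plac1* and *Rhox5* therefore parted between 2 libraries of the same label by more than counting error. Spread beyond counting error was general in WT (chi-square per degree of freedom 17.1), so by itself it singles out no gene.

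Between the CD4/ALK4-KO libraries the ratio was 1.19 for *Rhox5* (1.04 to 1.35), 1.55 for *Rhox2d* (1.04 to 2.32), 1.43 for *Rhox2h* (0.960 to 2.16) and 1.23 for *Plac1* (0.902 to 1.68). For *Rhox2g* it was 4.41 (1.91 to 11.8), from 7 and 32 counts, and 0.105% of the same genes were at least as far apart. Those genes averaged 100 counts or more over all 4 libraries. The share therefore does not allow for the low counts of *Rhox2g* in CD4/ALK4-KO. All 5 were nominally higher in replicate 2, with the intervals of *Rhox2h* and *Plac1* reaching below 1.

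**Figure D2:**
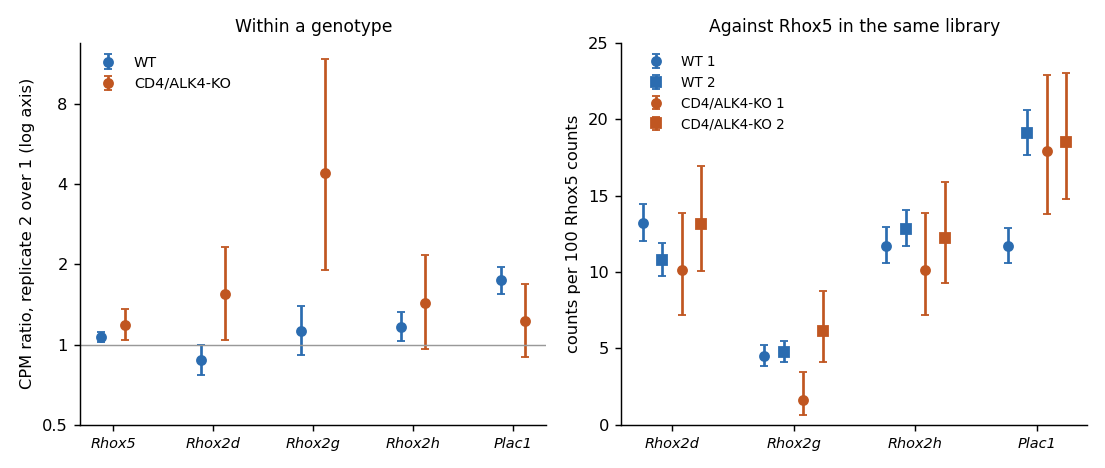
Left, CPM of replicate 2 over replicate 1 (log axis) for each gene within WT (blue) and within CD4/ALK4-KO (orange). Right, counts of each gene per 100 counts of Rhox5 in each of the 4 libraries; bars are exact 95% binomial intervals for counting error, and Plac1 in WT replicate 1 (11.7) and Rhox2g in CD4/ALK4-KO replicate 1 (1.65) lie below the other libraries.

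Taken per 100 counts of *Rhox5* in the same library, which removes library size and scaling, *Rhox2h* stood at 11.7 and 12.8 in WT and 10.1 and 12.2 in CD4/ALK4-KO. *Rhox2d* stood at 13.2 and 10.8 in WT and 10.1 and 13.2 in CD4/ALK4-KO. Like values across the labels follow from a choice of genes with like falls. Within WT the 95% intervals of *Rhox2d* did not overlap, with that of replicate 1 reaching up to 14.5 and that of replicate 2 from 9.76 to 11.9, while those of *Rhox2h* did (10.6 to 12.9 and 11.7 to 14.1). *Rhox5* made up between 66.7% and 71.5% of the counts of the 5 genes in each library.

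*Plac1* was lower against *Rhox5* in 1 library than in the other 3. It had 11.7 counts per 100 of *Rhox5* in WT replicate 1 (10.6 to 12.9) but 19.1 in WT replicate 2 (17.7 to 20.6), 17.9 in CD4/ALK4-KO replicate 1 (13.8 to 22.9) and 18.5 in replicate 2 (14.7 to 23.0). *Rhox2g* had 4.48 and 4.74 in WT, 1.65 in CD4/ALK4-KO replicate 1 (0.658 to 3.42) and 6.11 in replicate 2 (4.13 to 8.73). Of the counts of the 3 *Rhox2* copies, *Rhox2g* took 15.2% and 16.7% in WT and 7.53% and 19.4% in CD4/ALK4-KO, so the low library is WT replicate 1 for *Plac1* and CD4/ALK4-KO replicate 1 for *Rhox2g*.

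By the root mean square difference of centred log2 CPM over the 4 libraries, the genes most like *Rhox5* among 10459 that averaged 100 counts or more were *Rhox2h* (0.11), *Rhox2d* (0.16), *Stra6* (0.20), *Aspn* (0.20) and *Col8a1* (0.21). *Plac1* came next at 0.29 and *Rhox2g* was 77th at 0.61. *Stra6*, a receptor for the retinol-binding protein, had 362, 428, 56 and 57 counts in WT replicates 1 and 2 and CD4/ALK4-KO replicates 1 and 2. *Aspn*, an extracellular matrix proteoglycan, had 1678, 2200, 258 and 314 in the same order. *Col8a1*, a short-chain collagen, had 1259, 1226, 133 and 228. Their log2 fold changes were -2.64, -2.60 and -2.62, each smaller in size than that of *Rhox5*. Likeness over 4 libraries mostly reflects the same step between the labels.

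**Figure D3:**
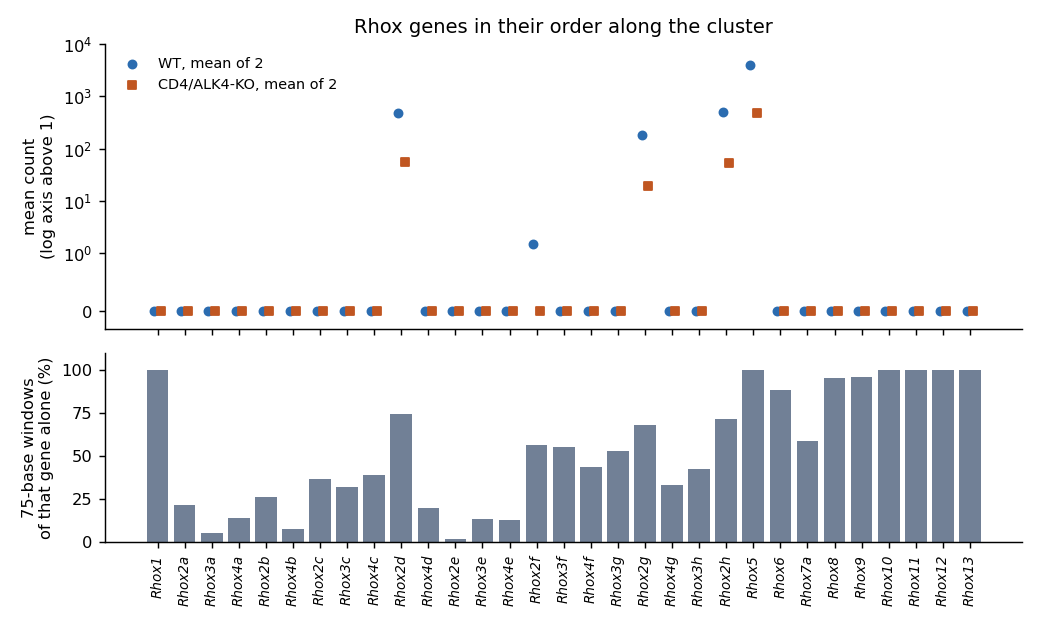
The 31 Rhox genes in their order along the X chromosome. Top, mean count of the 2 WT (blue) and 2 CD4/ALK4-KO libraries (orange), with a log axis above 1; bottom, percent of 75-base windows found in that gene alone. Counts stand at Rhox2d, Rhox2g, Rhox2h and Rhox5, with 3 reads in all at Rhox2f, and the other genes are at 0 whether their windows are their own or shared.

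The files list 31 *Rhox* genes, and the other 27 gave nearly no reads. *Rhox2f* had 1 and 2 counts in WT and 0 in both CD4/ALK4-KO libraries, and the other 26 were at 0 in all 4 libraries, where 3 counts, the limit that a count of 0 allows, come to between 0.219 and 0.252 CPM. Of these 26, 7 had at least 95% of windows of their own, among them *Rhox1*, *Rhox8*, *Rhox10* and *Rhox13*. A further 4 had between 50 and 95%, and 15 had under 50%, down to 2.1% for *Rhox2e*. For the 7, a 0 is a measurement of a gene that reads can reach. For the 15, it also covers reads that could have gone to another copy or been left out.

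Counts per 100 windows of its own put *Rhox2d* at 113 and 97.6 in WT, *Rhox2h* at 81.3 and 93.8 and *Rhox2g* at 32.3 and 36.0. *Rhox5* stood at 575 and 605 and *Plac1* at 34.5 and 59.5. Over both WT libraries, *Rhox2c* set at the limit of 3 counts came out 316-fold lower than *Rhox2d* on this scale. Set at the same limit, *Rhox2b* came out 134-fold lower and *Rhox2a* 129-fold lower. For *Rhox2e*, with 18 windows of its own, the value was 12.6-fold. *Rhox2d* is the highest copy on this scale, and the shared windows were taken out of the length but not out of the counts. The folds are too large if reads from shared windows were counted for *Rhox2d*, so they are not lower bounds. The *Rhox* genes from *Rhox1* to *Rhox13* span 916163 bp, with *Rhox2d* at chrX:37493428-37497623 on the plus strand and *Rhox2g* at chrX:37639115-37643470 and *Rhox2h* at chrX:37668989-37673277 on the minus strand.

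Of 13 tested genes that flank the cluster, 1 was lower, 0 were higher and 12 did not pass (median log2 fold change -0.013). Over all genes tested, 15.4% were lower and 17.4% higher (median -0.0082), so that so short a list does not set the flanks apart. The one that fell was *Ndufa1*, a subunit of respiratory complex I, with 1146, 1181, 329 and 659 counts (log2 fold change -1.08, SE 0.26, adjusted p = 0.0029). *Rpl39*, a ribosomal protein gene, had 9568, 8889, 2018 and 5472 (log2 fold change -1.15, adjusted p = 0.071). *Plac1* lies 15.3 Mb away, at chrX:53069995-53240111 on the minus strand. Of its 10 tested neighbours, 2 fell, 1 rose and 7 did not pass (median -0.14), with *Gpc3*, a heparan sulfate proteoglycan that restrains growth, lower by a log2 fold change of -0.88 (adjusted p = 0.0037). *Smim10l2a* was the one that rose, at 3, 1, 17 and 14 counts. Over 469 other X-linked genes tested, 80 were higher and 59 lower, with a median of 0.060.

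**Figure D4:**
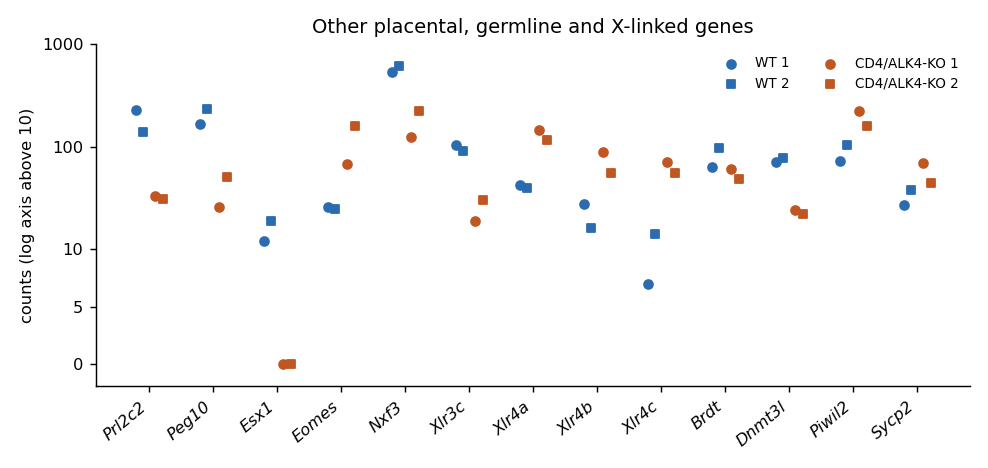
Counts (log axis above 10) of placental, germline and X-linked cancer-germline genes in the 2 WT (blue) and 2 CD4/ALK4-KO libraries (orange), circles for replicate 1 and squares for replicate 2. Prl2c2, Peg10, Esx1, Nxf3, Xlr3c and Dnmt3l lie lower in CD4/ALK4-KO, and Eomes, Xlr4a, Xlr4b, Xlr4c and Piwil2 higher; scaled to T cell receptor genes Eomes, Xlr4a, Xlr4b and Piwil2 had values below 0.

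Of 27 placental genes in the files, 13 were at 0 in all 4 libraries, against 6292 of all 25239 symbols. The 13 include the trophoblast markers *Tpbpa*, *Prl3d1*, *Prl3b1*, *Gcm1* and *Synb*. Of the 4 tested, 3 fell and 1 rose (median -2.28, also with *Esx1* at its bound), beside 15.4% lower and 17.4% higher over all genes. *Prl2c2*, a proliferin of the prolactin family with near-identical copies, had 226, 139, 33 and 31 counts (log2 fold change -2.34, SE 0.36, adjusted p = 3.4e-05). *Peg10*, an imprinted gene derived from a retrotransposon, had 168, 235, 26 and 51 (log2 fold change -2.22, SE 0.36, adjusted p = 6.0e-05). Both were high in the WT libraries and low in the others, as *Plac1* was. *Esx1*, an X-linked homeobox gene of placenta and testis, had 12 and 19 counts in WT and 0 in both CD4/ALK4-KO libraries, at least 9.2-fold lower against 3 counts over the group. The one that rose was *Eomes*, a T-box factor of trophoblast stem cells that is also used by T and NK cells, with 26, 25, 68 and 159 counts (log2 fold change 2.31, but -0.024 when scaled to T cell receptor genes).

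Of 28 germline genes known to be silenced by promoter methylation, 7 were at 0 in all libraries, against 6292 of all 25239 symbols. The 7 include *Mael*, *Sycp1* and *Taf7l*. Of the 8 tested 1 fell, 1 rose and 6 did not pass (median 0.69), shares near the 15.4% lower and 17.4% higher over all genes. The one that fell was *Dnmt3l*, a cofactor of the germline DNA methyltransferases, with 71, 77, 24 and 22 counts (log2 fold change -1.51, adjusted p = 0.012), and it did not pass without either WT library (adjusted p = 0.10 and 0.13). *Piwil2*, a protein of the piRNA pathway, rose from 72 and 105 to 224 and 158 counts (log2 fold change 1.28, adjusted p = 0.0036), a direction that turned when scaled to T cell receptor genes (-1.10). *Brdt*, *Sycp2*, *Tex14* and *Ddx4* did not pass, with log2 fold changes of -0.39, 0.98, 0.40 and -0.29.

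The X-linked cancer-germline families were split as well. Of 31 such genes, 21 were at 0 in all libraries, among them *Magea1* to *Magea6* and *Prame*, against 6292 of all 25239 symbols. Of the 5 tested, 2 fell and 3 rose (median 1.84), beside 15.4% lower and 17.4% higher over all genes. *Nxf3*, a member of the nuclear RNA export factor family, had 534, 614, 123 and 222 counts (log2 fold change -1.57, SE 0.27, adjusted p = 0.00012). *Xlr3c*, of the X-linked lymphocyte-regulated family, had 105, 91, 19 and 30 (log2 fold change -1.83, adjusted p = 0.0018), while *Xlr4a*, *Xlr4b* and *Xlr4c* of the same family rose (1.84, 1.87 and 2.75, but -0.51, -0.47 and 0.38 when scaled to T cell receptor genes). The *Xlr* genes have close copies, so their split is uncertain. Of 6 broadly expressed MAGE genes tested, 1 was lower (*Maged1*, -0.69, adjusted p = 0.023) and 5 did not pass. *Plac8*, which shares only its name with *Plac1*, had 4382, 6812, 5629 and 5591 counts (log2 fold change 0.17, adjusted p = 0.62).

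PLAC1 protein is known to work at the cell surface with the growth factor FGF7 and its receptor. Of 6 genes listed around that axis, not all of them particular to FGF7, 2 fell and 4 did not pass (median -0.42). Over all genes 15.4% were lower and 17.4% higher. *Fgfr1*, a receptor of other fibroblast growth factors, had 2433, 1714, 345 and 599 counts (log2 fold change -1.97, SE 0.25, adjusted p = 4.3e-06), and *Fgf7* had 386, 275, 109 and 87 (log2 fold change -1.58, adjusted p = 0.00023). *Furin*, a proprotein convertase, stood at -0.47 on the log2 scale (adjusted p = 0.11). *Fgfr2*, the receptor gene for FGF7 among the 6, did not pass, with 128, 160, 171 and 193 counts (log2 fold change 0.50, adjusted p = 0.19). Of 12 genes of the DNA methylation machinery, 7 rose, 2 fell and 3 did not pass (median 0.87, but -1.51 when scaled to T cell receptor genes). The 2 that fell, *Uhrf1* (-0.85, adjusted p = 0.0057) and *Hells* (-0.88, adjusted p = 0.0064), act in the maintenance of methylation during replication.

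**Figure D5:**
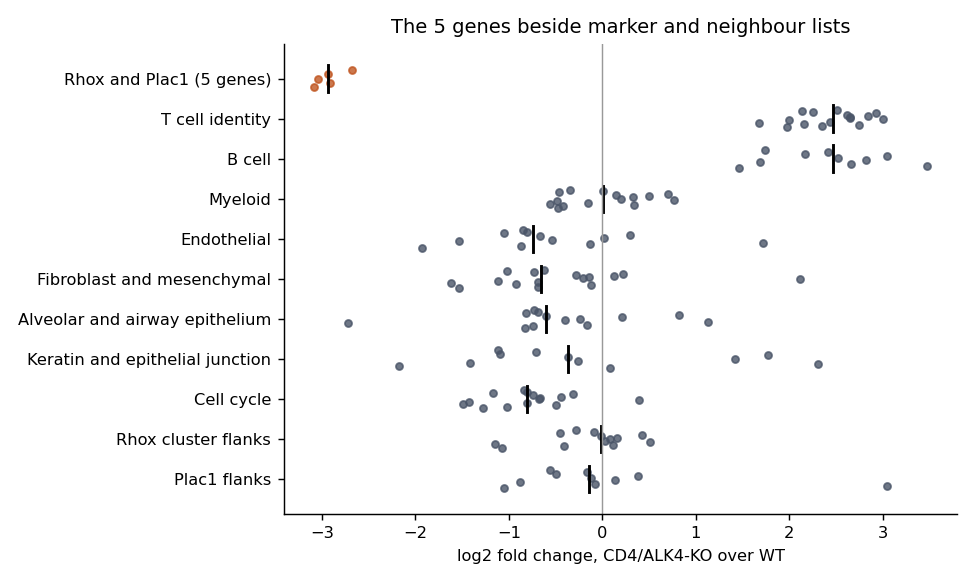
Log2 fold change, CD4/ALK4-KO over WT, of the 5 genes (orange) and of the tested genes of marker and neighbour lists (grey), 1 point per gene with a black bar at the median. The 5 genes lie between -3.08 and -2.68, and the medians of the non-lymphocyte lists lie between -0.81 and 0.0056; scaled to T cell receptor genes the median of all genes moves by -2.37.

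Markers of other cells changed in both directions. The counts of the lists below stand beside 15.4% lower and 17.4% higher over all genes tested. Of 11 keratin and epithelial junction genes tested, 5 fell, 3 rose and 3 did not pass (median -0.36), and their summed level was 577 and 503 CPM in WT and 311 and 313 CPM in CD4/ALK4-KO. *Krt18* and *Krt8*, the paired keratins of simple epithelia and carcinomas, fell by 1.12 and 1.09 on the log2 scale (adjusted p = 0.00031 and 0.00041). *Krt19* had -0.36 (adjusted p = 0.21). The 3 that rose were *Cdh1* (1.77, adjusted p = 0.00011), *Epcam* (2.31, adjusted p = 0.0022) and *Dsp* (1.42, adjusted p = 0.030). Of 13 alveolar and airway genes 4 fell, 2 rose and 7 did not pass (median -0.60), with summed levels from 504 to 752 CPM.

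Of 16 fibroblast genes 7 fell, 1 rose and 8 did not pass (median -0.65), and *Col3a1*, a fibrillar collagen, fell by 0.93 on the log2 scale (adjusted p = 0.00079). Of 12 endothelial genes 3 fell, 1 rose and 8 did not pass (median -0.74). Their summed level was nonetheless higher in CD4/ALK4-KO (150 and 178 CPM against 116 and 124 CPM). That higher sum rests on *Pecam1*, the one that rose, with means of 32.6 CPM in WT and 107 CPM in CD4/ALK4-KO. Of 15 cell cycle genes 10 fell and 5 did not pass (median -0.81). Of 15 myeloid genes 1 rose and 14 did not pass (median 0.0056), and all 10 B cell genes rose (median 2.47). In these lists 1 gene had a log2 fold change at or below that of *Plac1*, the ciliated-cell factor *Foxj1* of the airway list, at 20, 11, 0 and 4 counts.

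Set against the keratins within each library, *Rhox5* had 167 and 186 counts per 100 of *Krt18* in WT and 49.0 and 52.5 in CD4/ALK4-KO. *Plac1* had 19.5 and 35.6 in WT and 8.77 and 9.72 in CD4/ALK4-KO. Per 100 counts of *Col3a1*, *Rhox5* had 10.2 and 11.4 in WT and 2.51 and 2.94 in CD4/ALK4-KO. That these ratios were lower in both CD4/ALK4-KO libraries follows from the choice of genes with larger falls than the markers, and they are given for their size. The part of epithelial, stromal or T cell content in the difference of the 5 genes was not tested.

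With a scaling on 7 T cell receptor genes instead of all genes, the median gene moved by -2.37 on the log2 scale and the 5 genes had log2 fold changes between -5.42 and -5.06. The shift is about the same for every gene, so the values of the 5 genes are relative to the scaling.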

How the data were processed

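Counts per gene were deposited for 4 libraries. The authors aligned 75 bp single-end reads from unstranded TruSeq v2 libraries to mm10 with HISAT2 and counted them with HTSeq in its intersection-nonempty mode. The annotation and tool versions were not given in the sources used here, and without strand, reads of overlapping antisense genes cannot be told apart.

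CD4/ALK4-KO was compared with WT by edgeR's quasi-likelihood test (edgeR 4.0.16, R 4.3.3) with TMM scaling and filterByExpr. Benjamini-Hochberg adjusted p-values ran over the 13919 genes tested, and calls used 0.05. All 5 genes passed the filter on low counts. They, and the gene lists, were chosen with earlier results of these data known. The methods were tested on simulated data. Besides the 5 genes, those named were other *Rhox* and *Plac* genes, *Acvr1b*, *Cd4*, up to 3 of the most counted genes of a list, placental, germline and X-linked genes that averaged 20 counts or more, and the 5 nearest to *Rhox5*. *Esx1*, *Ndufa1*, *Smim10l2a*, *Uhrf1*, *Foxj1*, *Fgfr2*, *Cdh1*, *Epcam*, *Dsp*, *Pecam1* and genes named as at 0 were chosen after their values were seen. Lengths and windows came from GENCODE M21, in which 24374 of 25239 symbols matched, and promoters from RefSeq. Of 13 other settings, 1 (a crossed pairing of the replicates) was added after the data were seen. Libraries of one genotype differed by more than counting noise (chi-square per degree of freedom 17.1 in WT and 30.5 in CD4/ALK4-KO).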

Additional observations from a re-analysis of the deposited data

How the results depend on the processing

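With TMM scaling 2422 genes were higher and 2140 lower in CD4/ALK4-KO. Leaving out 1 library moved these counts between 1103 and 2923 and between 754 and 2618, with 1103 and 754 without WT replicate 1 and 1344 and 1047 without WT replicate 2. Scaling to 7 T cell receptor genes gave 27 and 12986 by construction, since those genes were then held level. On that scale the log2 fold changes turned for *Plac8* (-2.21), *Eomes* (-0.024), *Xlr4a* (-0.51), *Xlr4b* (-0.47), *Piwil2* (-1.10), *Sycp2* (-1.40), *Tex14* (-1.95) and *Acvr1b* (-2.18). Leaving out 1 library moved 3 unpassed values across 0, from -0.13 to 0.53 for *Plac8*, from -0.065 to 0.39 for *Acvr1b* and from -0.92 to 0.16 for *Ddx4*, and the cause was not tested. The 5 genes stayed below 0 in every setting that gave a value. *Rhox2g* gave none where at least 10 counts were required in every library.

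The replicate numbers are shared by the labels only. Libraries with the same number deviated from their group means with a correlation of -0.21. Fitted as a replicate block, 1768 genes were higher and 1444 lower, and with crossed pairs 3118 and 3037. The 5 genes with the block had log2 fold changes between -3.25 and -2.64. With 2 libraries per genotype, counts under about 10, as for *Rhox2g*, limit the precision of a fold.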
